A study of Mus musculus with 6 samples.

Results

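De novo lipogenesis is the making of fatty acids from sugar-derived carbon, and 10 genes of it were followed here in mouse liver. They are the enzyme genes Acly, Me1, Acaca, Acacb, Fasn, Elovl6 and Scd1, the lipogenic cofactor gene Thrsp, and the transcription factor genes Srebf1 and Mlxipl. The genes were chosen by their function, with earlier results of these data known, and all 10 were found by Ensembl ID among the 37991 genes of the count table. Livers came from 12-week-old males, 3 of C57BL/6J (wild type, WT) and 3 of B6.Zpbp2-/- (Zpbp2 KO, below also knockout), a line on the same background that lacks the sperm protein gene Zpbp2. The labels name no treatment, and the feeding state and the hour of collection were not given in the sources used here. What the allele removes and whether littermates were used is not stated either. The series title names altered lipid metabolism in these mice, which is the question this pathway bears on.

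In hepatocytes, citrate exported from mitochondria is cleaved to acetyl-CoA by ATP citrate lyase (Acly), and acetyl-CoA carboxylase makes it into malonyl-CoA. Fatty acid synthase (Fasn) builds palmitate from these units with NADPH, part of which comes from malic enzyme (Me1). The product is lengthened by Elovl6 and desaturated by Scd1. Insulin acts on the programme through SREBP-1c, a product of Srebf1, and sugar through ChREBP, the product of Mlxipl, so that the genes are known to respond strongly to feeding.

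Total counts ran from 37904891 to 52955687 per library. Zpbp2 had 4, 13 and 7 counts in WT replicates 1 to 3 and 0 in each knockout library, which goes with the labels. The libraries were made from bulk liver, so that more transcript per cell and more cells of a type cannot be told apart. Albumin (Alb), the hepatocyte secretory product, averaged 70446 ± 4548 CPM (counts-per-million scale, set to effective library sizes) in WT and 75719 ± 1550 CPM in knockout livers (SD, n = 3). The 9 hepatocyte markers that were matched summed to 103039 to 109930 CPM in WT and 111830 to 118191 CPM in knockout livers, without overlap. Alb made up most of this sum and by itself overlapped between the genotypes. Of the 9 markers 0 had groups without overlap, against 11.6% of all tested genes. By log2 fold change 8 were above 0, against 52.9% of all tested genes. Apob was below 0 (6745 ± 1185 CPM in WT and 5349 ± 912 CPM in knockout livers). Fat cells also express lipogenic genes. Of their defining transcripts, adiponectin (Adipoq) had 6, 0 and 0 counts in WT replicates 1 to 3 and 26, 5 and 0 in knockout replicates 1 to 3, and perilipin 1 (Plin1) had 4, 0 and 0, and 18, 6 and 0. The 10 adipocyte markers summed to 40.5 to 45.4 CPM in WT and 47.2 to 51.2 CPM in knockout livers. Most of this sum was not Adipoq or Plin1. It came from Lipe (means of 17.1 CPM in WT and 17.5 CPM in knockout livers), Pparg (10.4 and 9.24), Adrb3 (9.06 and 12.9) and Fabp4 (6.09 and 7.77). The part of fat cells in the lipogenic values was not tested.

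The lipogenic genes took 1.00% to 1.36% of a library's counts in WT and 1.12% to 1.40% in knockout livers, most of it from Scd1. Levels of different genes were compared as CPM per kilobase of the longest annotated transcript. On this scale Scd1 stood at 1836 ± 275 in WT liver (SD, n = 3) and was first, far above Thrsp at 132 ± 82.0. Mlxipl (118 ± 23.0), Me1 (88.2 ± 22.4), Acly (87.1 ± 6.42), Srebf1 (70.3 ± 19.2) and Fasn (69.0 ± 18.3) came next, and neighbours in this order, from Thrsp to Fasn, overlapped between WT livers. Elovl6 (16.4 ± 4.67), Acacb (13.9 ± 1.71) and Acaca (10.8 ± 1.44) were last, again with overlap between neighbours. The lowest WT value of Fasn per kilobase (55.7) lay above the highest of Elovl6 (21.6), and the lowest of Scd1 (1580) above the highest of Thrsp (225). By counts Scd1 was 7th among all genes of WT liver and Fasn 172nd. In knockout livers Scd1 (1873 ± 169), Thrsp (247 ± 94.3) and Mlxipl (131 ± 25.3) again held the first ranks per kilobase, and Acaca (13.9 ± 4.44) the last. Me1 moved from rank 4 in WT to rank 7 in knockout livers.

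Between the genotypes no lipogenic gene was called. In edgeR's quasi-likelihood test 0 of the 10 had a Benjamini-Hochberg adjusted p below 0.05, against 2 of all 14686 tested genes (0.0136%), and by DESeq2 0 of 10, against 76 of 14681 genes (0.518%). At an unadjusted p below 0.05 edgeR had 0 of the 10, against 5.79% of all tested genes, of which 2.86% higher and 2.93% lower in the knockout. All 10 passed the filter on low counts. Their log2 fold changes (knockout over WT) had a median of 0.30, with 9 of 10 above 0, where all tested genes had a median of 0.01 and 52.9% above 0. The 10 values come from the same 6 libraries and are not independent of each other. Without knockout replicate 3 the median was 0.14. Values of each gene follow by its place in the pathway, all as CPM with SD over 3 livers.

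**Figure D1:**
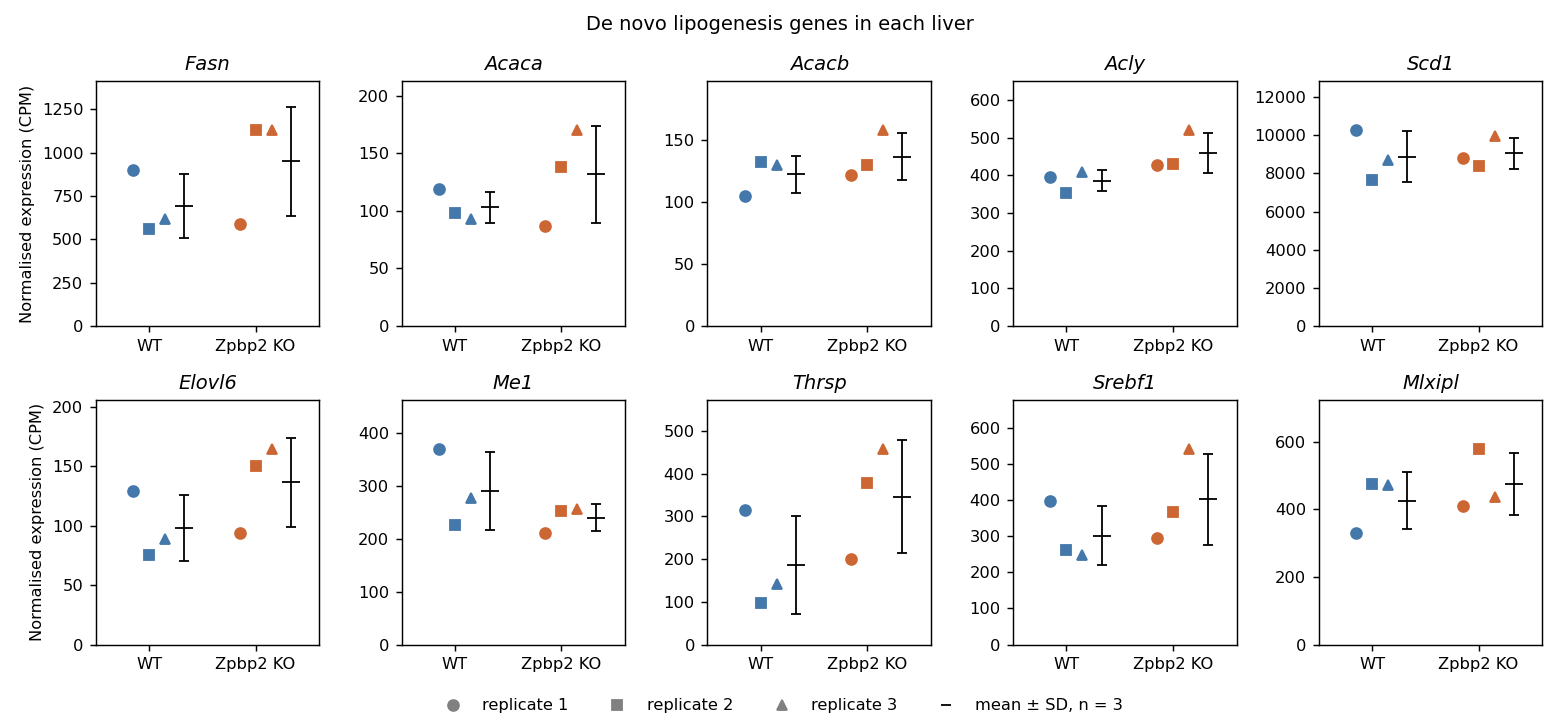
Normalised expression in CPM (y axis, linear, from 0) of the 10 lipogenic genes in each liver, by genotype. Symbols mark the replicate number, and the bar beside each group is its mean ± SD (n = 3). Only for Acly do the 3 knockout livers (426 to 520 CPM) all lie above the 3 WT livers (354 to 409 CPM).

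Acly, which supplies cytosolic acetyl-CoA, read 395, 354 and 409 CPM in WT replicates 1 to 3 and 426, 431 and 520 CPM in knockout replicates 1 to 3. It was the single member whose groups did not overlap, 1 of 10 above WT, against 5.56% of all tested genes. The means were 386 ± 28.4 and 459 ± 53.1 CPM, a log2 fold change of 0.25 ± 0.114 (SE) for which the edgeR quasi-likelihood test gave an adjusted p of 0.798. The 95% interval of the change, taken from this SE and the test's degrees of freedom, ran from -0.01 to 0.51. Without knockout replicate 3 the change was 0.15. Acly is 1 of 4 members on chromosome 11, where Zpbp2 lies. In the GENCODE M21 gene order 30 tested genes separate it from Zpbp2, against 157 for Acaca, 348 for Fasn and 502 for Srebf1. Sequence carried with the allele cannot be told apart from the loss of Zpbp2 in this design.

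Malic enzyme gene Me1, a source of NADPH, was the member with a lower mean in the knockout. It read 370, 225 and 276 CPM in WT replicates 1 to 3 and 211, 252 and 256 CPM in knockout replicates 1 to 3. The high value was that of WT replicate 1, and the other livers of both genotypes overlapped. The log2 fold change was -0.28 ± 0.178 (95% interval -0.68 to 0.13, adjusted p = 0.798 by edgeR). It was -0.06 without WT replicate 1 and -0.43 without WT replicate 2.

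The carboxylases differ in place and use. Acaca encodes the cytosolic form that feeds fatty acid synthesis, and Acacb the form at the outer mitochondrial membrane, whose malonyl-CoA restrains fatty acid import and oxidation. Acaca read 119, 98.2 and 92.6 CPM in WT replicates 1 to 3 and 86.7, 138 and 170 CPM in knockout replicates 1 to 3, so that the knockout held both the lowest and the highest livers. Its log2 fold change was 0.35 ± 0.225 (-0.16 to 0.87), and it was 0.12 without knockout replicate 3 and 0.58 without knockout replicate 1. Acacb read 105, 132 and 130 CPM in WT and 122, 130 and 158 CPM in knockout livers, with a log2 fold change of 0.16 ± 0.134 (-0.15 to 0.47), which was 0.04 without knockout replicate 3 and 0.06 without WT replicate 1. Only knockout replicate 3 lay outside the WT range of Acacb.

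Fasn, the enzyme that builds palmitate, read 903, 560 and 617 CPM in WT replicates 1 to 3 and 589, 1130 and 1131 CPM in knockout replicates 1 to 3. knockout replicates 2 and 3 were above every WT liver, while replicate 1 was within the WT range. The means were 693 ± 184 and 950 ± 313 CPM, a 1.37-fold difference with a log2 fold change of 0.45 ± 0.271 (-0.17 to 1.08) and an adjusted p of 0.798 by edgeR. The interval holds no change and also a 2.11-fold higher level. The change was 0.71 without knockout replicate 1, 0.69 without WT replicate 1 and 0.31 without knockout replicate 3.

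Elovl6, which lengthens palmitate to stearate, read 129, 75.3 and 89.1 CPM in WT replicates 1 to 3 and 93.8, 151 and 165 CPM in knockout replicates 1 to 3. Its order over the livers was close to that of Fasn, and its log2 fold change was 0.48 ± 0.248 (-0.09 to 1.05, adjusted p = 0.798 by edgeR). Without WT replicate 1 it was 0.73 and without knockout replicate 3 it was 0.32. Scd1, the desaturase that makes oleate and palmitoleate, differed least between the genotypes. It read 10272, 7633 and 8715 CPM in WT and 8784, 8400 and 9969 CPM in knockout livers, with means of 8873 ± 1327 and 9051 ± 818 CPM. The log2 fold change was 0.03 ± 0.140 (-0.29 to 0.35), which leaves room for 1.27-fold more and for a level of 0.817 of WT. It was -0.002 with library totals in place of TMM scaling, -0.07 without WT replicate 2 and -0.05 without knockout replicate 3.

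Scd1 has close copies beside it, and counting may have split or dropped shared reads. Scd2, the form best known from brain and neonatal liver, averaged 14.9 ± 2.80 CPM in WT and 13.0 ± 4.15 CPM in knockout livers. Scd3 stood at 0.346 ± 0.160 and 0.351 ± 0.128 CPM, and Scd4, below the filter, at 0.146 ± 0.0677 and 0.149 ± 0.0540 CPM. Per kilobase, Scd1 was 651 to 702 times Scd2 in WT and 651 to 1052 times in knockout livers, so most stearoyl-CoA desaturase transcript counted in these livers was Scd1.

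Thrsp (Spot 14), a small protein that responds to thyroid hormone and carbohydrate and promotes lipogenesis, varied most. It read 315, 98.0 and 142 CPM in WT replicates 1 to 3 and 201, 378 and 459 CPM in knockout replicates 1 to 3. WT replicate 1 lay above knockout replicate 1, so the groups overlapped. The means were 185 ± 115 and 346 ± 132 CPM, a 1.87-fold difference and the largest of the 10, with a log2 fold change of 0.90 ± 0.436 (-0.10 to 1.90, adjusted p = 0.798 by edgeR). The change was 1.53 without WT replicate 1 and 0.60 without WT replicate 2. Between WT livers the coefficient of variation was 62.0% for Thrsp, 12.3% for Acacb and 7.37% for Acly. Mid1ip1, the paralog of Thrsp that promotes assembly of acetyl-CoA carboxylase into filaments, stood at 65.7 ± 11.5 and 77.7 ± 16.7 CPM (log2 fold change 0.24 ± 0.178).

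Srebf1 encodes SREBP-1a and SREBP-1c from separate starts, which counts per gene do not tell apart. It read 398, 261 and 248 CPM in WT replicates 1 to 3 and 296, 367 and 544 CPM in knockout replicates 1 to 3. WT replicate 1 was above 2 of the 3 knockout livers. The log2 fold change was 0.41 ± 0.251 (-0.16 to 0.99), and it was 0.66 without WT replicate 1 and 0.13 without knockout replicate 3. Mlxipl, whose product ChREBP senses sugar phosphates, read 330, 476 and 472 CPM in WT and 409, 580 and 437 CPM in knockout livers. Its log2 fold change was 0.16 ± 0.181 (-0.26 to 0.57), and it was 0.004 without WT replicate 1, 0.25 without WT replicate 2, 0.26 without knockout replicate 1 and -0.01 without knockout replicate 2. Both transcription factor genes thus overlapped between the genotypes, with adjusted p-values of 0.798 for Srebf1 and 0.862 for Mlxipl by edgeR.

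**Figure D2:**
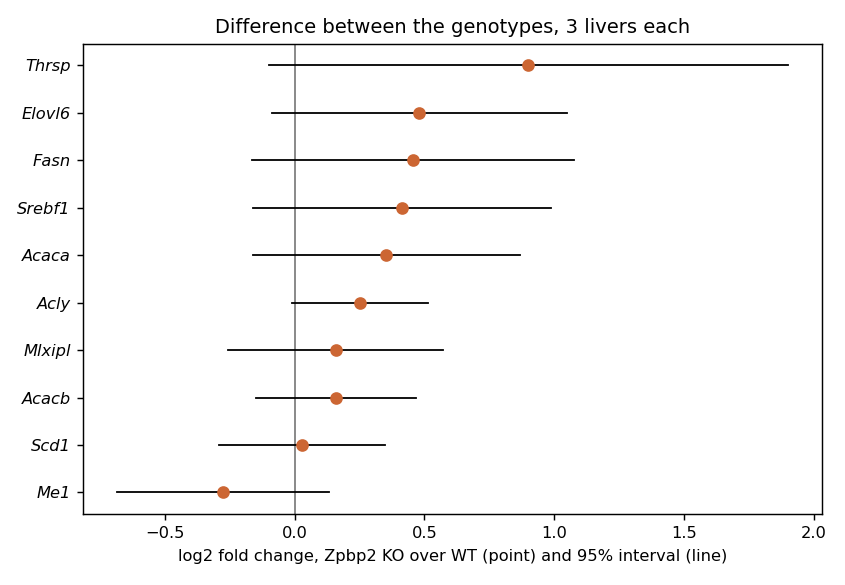
Log2 fold change of each lipogenic gene, knockout over WT (points, x axis), with its 95% interval (lines), from edgeR's quasi-likelihood fit over 3 livers a group. All 10 intervals include 0, and the points run from -0.28 for Me1 to 0.90 for Thrsp.

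Several lipogenic genes followed 1 pattern over the 6 livers that did not follow the genotype. For Fasn, Acaca, Elovl6, Thrsp and Srebf1 the 3 highest livers were WT replicate 1 and knockout replicates 2 and 3. These 5 genes are 5 of the 10 members, and 470 of 14686 tested genes (3.20%) had the same 3 livers on top. This pattern was noticed after the values were seen and is given as a description, and the rank order of these 5 genes is what made it visible. WT replicate 1 was the highest WT liver for 7 of the 10 genes and knockout replicate 3 the highest knockout liver for 9. WT replicate 2 was the lowest WT liver for 6 and knockout replicate 1 the lowest knockout liver for 9. Relative to its own mean on the log2 scale, Thrsp spanned 2.23 over the livers, Srebf1 1.13, Elovl6 1.13, Fasn 1.02 and Acaca 0.97, while Scd1 spanned 0.43 and Acly 0.56.

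**Figure D3:**
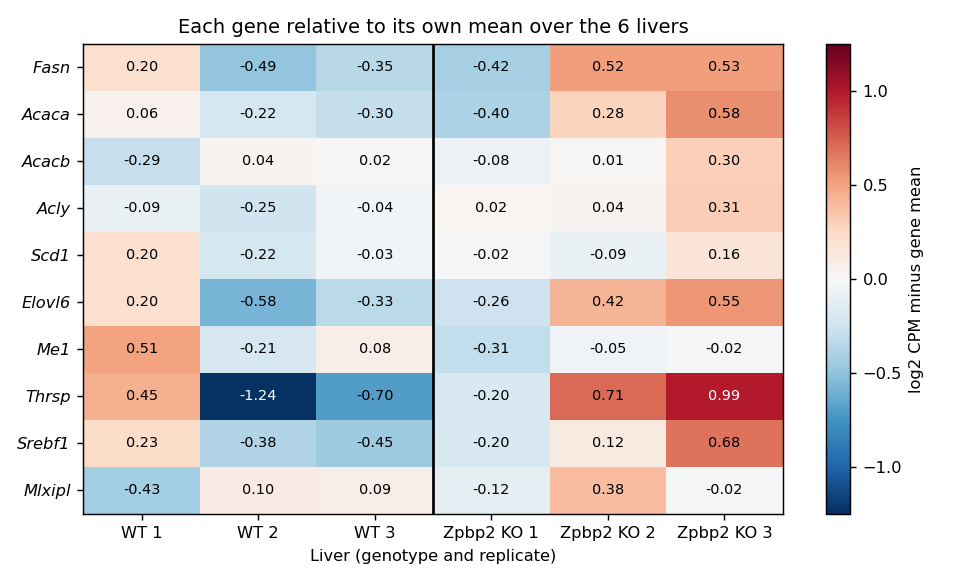
Log2 CPM of each gene (rows) in each liver (columns) minus the gene's mean over the 6 livers, with the value written in the cell. WT livers are left of the line. Fasn, Acaca, Elovl6, Thrsp and Srebf1 are above their means in WT replicate 1 and knockout replicates 2 and 3, and Mlxipl is lowest in WT replicate 1 (-0.43).

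Mlxipl and Acacb did not share this order. Mlxipl was lowest (330 CPM) in WT replicate 1, where Scd1 and Me1 were highest. Acacb was also lowest there (105 CPM). The ratio of Acaca to Acacb per kilobase was 1.04 in WT replicate 1, 0.986 in knockout replicate 2 and 0.997 in knockout replicate 3. It was 0.688 and 0.658 in WT replicates 2 and 3 and 0.657 in knockout replicate 1. The mean ratio was 0.797 ± 0.214 in WT and 0.880 ± 0.193 in knockout livers, a difference smaller than the spread within either genotype. Fasn to Acaca was steadier, at 5.39 to 7.20 in WT and 6.29 to 7.73 in knockout livers.

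Scd1 to Elovl6 was 98.2, 125 and 120 in the WT livers, in replicate order, against 115, 68.7 and 74.5 in the knockouts. knockout replicates 2 and 3 lay below every WT liver and replicate 1 within the WT range. Srebf1 to Srebf2, the gene of the factor that drives cholesterol synthesis, was 8.74, 4.43 and 4.40 in WT and 5.57, 7.04 and 10.5 in knockout livers. Srebf2 itself stood at 63.3 ± 8.49 and 61.8 ± 0.861 CPM.

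**Figure D4:**
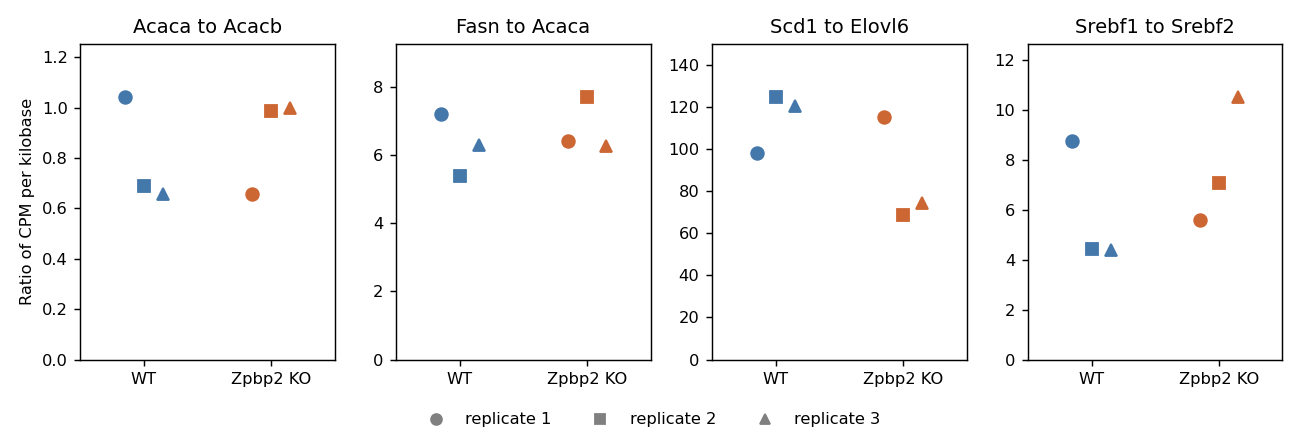
Ratios of CPM per kilobase between pairs of genes in each liver (points, y axis from 0), by genotype, with symbols for the replicate number. The ratio of Acaca to Acacb is 0.986 to 1.04 in 3 livers and 0.657 to 0.688 in the other 3, and both levels occur in both genotypes.

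Other cells of the liver also differed between these libraries. The 10 Kupffer cell and macrophage markers summed to 294 to 431 CPM in WT livers, to 500 and 536 CPM in knockout replicates 1 and 3, and to 165 CPM in knockout replicate 2. The 10 endothelial markers summed to 244 to 343 CPM in WT and 163 to 384 CPM in knockout livers, with knockout replicate 2 again the lowest. Stellate (256 to 319 and 231 to 326 CPM) and cholangiocyte marker sums (51.2 to 74.3 and 45.6 to 80.2 CPM) overlapped between WT and knockout. The erythroid sum (154 to 228 and 170 to 360 CPM) overlapped too and was mostly Alas2 (149 ± 19.8 and 153 ± 26.7 CPM). All 6 tested erythroid markers had a log2 fold change above 0, against 52.9% of all tested genes, with a median of 1.05. The globin genes Hba-a2 and Hbb-bs had an unadjusted p below 0.05 by edgeR, against 2.86% of all tested genes higher. Of the 6 markers 0 were called by edgeR or DESeq2, and 0 had groups without overlap. Hbb-bs read 14.4, 43.6 and 31.5 CPM in the WT livers and 97.5, 97.8 and 23.7 CPM in the knockouts, in replicate order. In knockout replicates 1 to 3 Fasn stood at 589, 1130 and 1131 CPM, beside macrophage sums of 500, 165 and 536 CPM. For WT replicates 1 to 3 these were 903, 560 and 617 CPM, beside 431, 356 and 294 CPM. The part of these cells, blood included, and of the hepatocyte and adipocyte sums given above, in the lipogenic values was not tested.

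Promoter sequences are shown for Fasn, Srebf1 and Acly, as Fasn and Srebf1 had the same 3 highest livers and Acly did not. RefSeq windows on GRCm38.p6 were matched by symbol for 9 of the 10 genes, all but Scd1, 13 windows in all. Each sequence below is the 250 bases before a start, 5′ to 3′ on the gene's strand. Capitals mark, on either strand, CCAAT (the box bound by NF-Y), GGGCGG (the GC box bound by Sp1), CACGTG (the E-box form bound by ChREBP and USF), TCACCC (a core of sterol elements bound by SREBP) and AGGTCA (the core bound by nuclear receptors such as LXR). Where marked sites touch or overlap, the capitals run together.
Fasn, chr11:120824548-120824797, minus strand: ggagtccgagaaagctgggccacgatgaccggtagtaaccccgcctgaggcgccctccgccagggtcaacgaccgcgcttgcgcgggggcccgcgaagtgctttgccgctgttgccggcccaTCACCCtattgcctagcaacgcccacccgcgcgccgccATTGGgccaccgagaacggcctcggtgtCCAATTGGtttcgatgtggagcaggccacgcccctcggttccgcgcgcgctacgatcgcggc
Srebf1, the start furthest downstream, chr11:60210472-60210721, minus strand: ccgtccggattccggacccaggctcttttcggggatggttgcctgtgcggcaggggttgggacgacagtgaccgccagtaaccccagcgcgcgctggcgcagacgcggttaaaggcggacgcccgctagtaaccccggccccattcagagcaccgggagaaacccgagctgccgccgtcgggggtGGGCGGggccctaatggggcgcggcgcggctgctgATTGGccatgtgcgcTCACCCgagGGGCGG
Srebf1, the next start upstream of it, chr11:60220628-60220877, minus strand: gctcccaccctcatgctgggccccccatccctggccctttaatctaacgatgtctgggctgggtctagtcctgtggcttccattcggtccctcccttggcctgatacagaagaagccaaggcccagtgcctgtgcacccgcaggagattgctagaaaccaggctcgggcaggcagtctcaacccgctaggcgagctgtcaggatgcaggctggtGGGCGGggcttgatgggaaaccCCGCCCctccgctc
Acly, chr11:100528001-100528250, minus strand: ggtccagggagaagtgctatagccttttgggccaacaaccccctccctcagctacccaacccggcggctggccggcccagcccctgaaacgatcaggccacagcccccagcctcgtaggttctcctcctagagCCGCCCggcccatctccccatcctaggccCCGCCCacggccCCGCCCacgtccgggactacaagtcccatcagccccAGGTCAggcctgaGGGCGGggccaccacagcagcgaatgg

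The Fasn window held 3 CCAAT boxes, with their first bases 90, 62 and 59 bases before the start, the last of which overlap. It also held 1 sterol element core, 128 bases before the start. The downstream Srebf1 window held 1 CCAAT box 30 bases and 1 sterol element core 15 bases before the start, and 2 GC boxes. In the Srebf1 window further upstream 2 GC boxes were found and none of the other motifs. A Srebf1 window still further upstream, not shown, held 1 CCAAT box, 166 bases before the start, and none of the other motifs. Acly had 4 GC boxes and 1 nuclear receptor core, and neither a CCAAT box nor a sterol element core. Among genes with the same 3 highest livers as Fasn, the single Acaca window held none of the motifs and Elovl6 only a nuclear receptor core. Whether the start of that Acaca window is used in liver was not tested, and any other start of the gene is not covered. Thrsp held 2 CCAAT boxes and no sterol element core. Among the other genes, Acacb and 1 Mlxipl window held a CCAAT box. Me1 held a CCAAT box in 1 window and a sterol element core in the other. A link between motifs and the order of the livers was not tested. The E-box form was found in 1 of the 13 windows, that of a Mlxipl start. Over all 32851 windows of the table, taken as the same 250 bases, the CCAAT box was present in 33.9%, the GC box in 32.7%, the sterol element core in 13.8%, the nuclear receptor core in 14.0% and the E-box form in 6.02%. Among the 13 windows of the lipogenic genes the CCAAT box was in 7, the GC box in 5, the sterol element core in 3 and the nuclear receptor core in 2. A match is a run of letters and not a measured binding site, and windows of 1 gene are not independent of each other.

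The rest of the pathway was described by lists of its supply, control and downstream genes. None of these 6 lists held a gene called by edgeR or DESeq2, and their medians lay between -0.14 and 0.09. Except for mitochondrial fatty acid synthesis, each of these medians changed sign under at least 1 alternative. Of 98 different genes tested on them, 8 (8.16%) had the same 3 highest livers as Fasn and Srebf1, among them Mid1ip1, Pklr and Pnpla3.

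Genes that supply carbon and NADPH had a median log2 fold change of 0.06 over 18 genes, with 12 above 0 and 2 higher at an unadjusted p below 0.05, against 52.9% and 2.86% of all tested genes. Acss2, which makes acetyl-CoA from acetate, read 233, 284 and 269 CPM in WT and 326, 298 and 344 CPM in knockout livers. All knockout livers were thus above all WT livers, with a log2 fold change of 0.30 ± 0.109 and an adjusted p of 0.798 by edgeR. On this list 3 of 18 genes lay above WT without overlap, against 5.56% of all tested genes. Pklr, the liver pyruvate kinase and a ChREBP target, chosen here after its values were seen, read 393, 264 and 262 CPM in WT and 298, 493 and 434 CPM in knockout livers.

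Control genes of SREBP-1c and ChREBP stood close to 0, with a median of 0.02 over 20 genes and 11 above 0. None reached an unadjusted p below 0.05. The smallest p-values were those of Nfya, a subunit of NF-Y (8.97 ± 0.108 and 11.0 ± 1.28 CPM, log2 fold change 0.30 ± 0.131), and Fbxw7, a ubiquitin ligase subunit that marks nuclear SREBP for breakdown (11.5 ± 1.13 and 9.61 ± 0.628 CPM, -0.25 ± 0.130). The Insig genes, whose proteins hold SREBP in the endoplasmic reticulum, varied between livers and were picked after their values were seen. Insig1, itself an SREBP target, read 425 to 444 CPM in WT livers and 381, 315 and 744 CPM in knockout replicates 1 to 3. Insig2 read 171, 353 and 293 CPM in WT and 231, 294 and 129 CPM in knockout livers. Insig1 was highest and Insig2 lowest in knockout replicate 3, a single liver, and a link of either gene to the Srebf1 values was not tested.

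Regulators of acetyl-CoA carboxylase, AMPK subunits among them, had a median of -0.01 over 14 genes, with 7 above 0 and 0 at an unadjusted p below 0.05. Camkk2, a kinase upstream of AMPK, had the smallest p (8.44 ± 2.58 and 6.48 ± 1.13 CPM, -0.38 ± 0.248). On the list of elongation, desaturation and fatty acid activation the median was 0.03 over 20 genes, with 11 above 0. Acsl1, the main acyl-CoA synthetase of liver, was the 1 gene lower at an unadjusted p below 0.05, against 2.93% of all tested genes. It read 1086, 1204 and 1374 CPM in WT and 976, 956 and 923 CPM in knockout livers, without overlap (log2 fold change -0.36 ± 0.111, adjusted p = 0.714 by edgeR). Cyb5r3, the reductase that feeds electrons to Scd1 through cytochrome b5, stood at 563 ± 45.7 and 663 ± 59.6 CPM (0.24 ± 0.109), also without overlap. On this list 3 of 20 genes had no overlap in either direction (15%), against 11.6% of all tested genes.

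On the list of other targets of SREBP-1c, LXR and ChREBP most genes were below 0, unlike the lipogenic genes. This depends on how the lists were drawn. Pklr and Insig1, targets placed on other lists, had log2 fold changes of 0.41 and 0.13. Of the 19 tested genes of the list itself, 6 were above 0 and 13 below, against 52.9% of all tested genes above 0. The list median was -0.14, which was 0.06 without WT replicate 1. Pnpla3, a lipid droplet protein and SREBP-1c target, was the 1 higher at an unadjusted p below 0.05, against 2.86% of all tested genes. It read 2.75, 1.68 and 1.78 CPM in WT and 2.13, 4.87 and 5.98 CPM in knockout livers, with overlap, and its log2 fold change of 1.06 ± 0.379 had an adjusted p of 0.798 by edgeR. Gpd1, which makes glycerol 3-phosphate, stood at 559 ± 69.8 and 471 ± 35.8 CPM (-0.25 ± 0.119). The separate mitochondrial fatty acid synthesis, which makes the precursor of lipoic acid, had a median of 0.09 over 8 genes, with 0 at an unadjusted p below 0.05. Its smallest p-values were those of the acyl carrier protein gene Ndufab1 (0.13 ± 0.123) and of Acsf3, malonyl-CoA synthetase (0.12 ± 0.112).

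**Figure D5:**
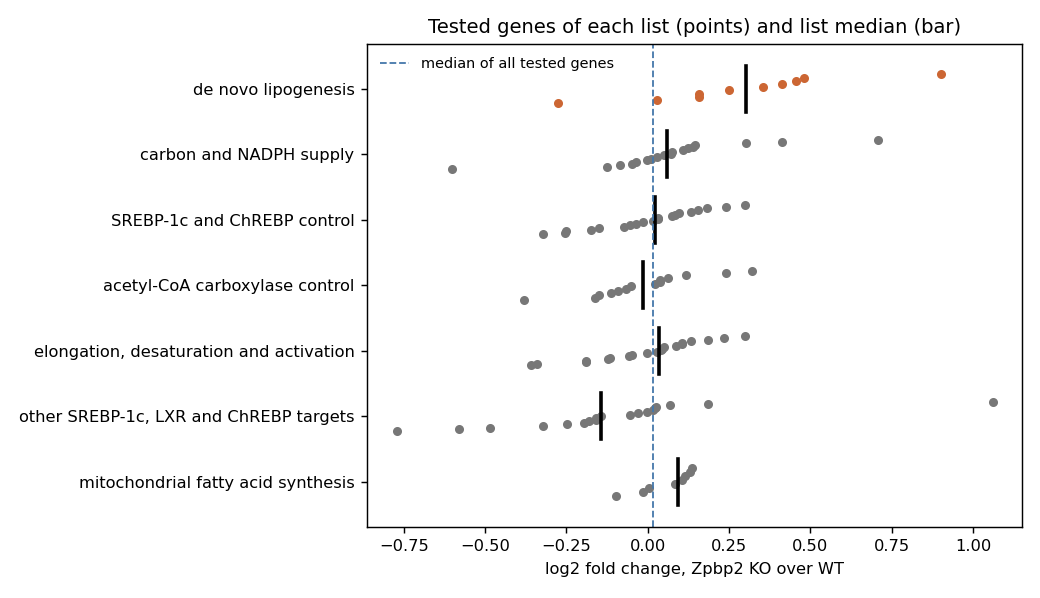
Log2 fold changes, knockout over WT (x axis), of the tested genes of each list (points) with the list median (bar). The dashed line is the median of all 14686 tested genes (0.01). The lipogenic genes have a median of 0.30 and the other lists medians from -0.14 to 0.09.

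Genes near the lipogenic genes' median profile over the 6 livers were sought among 8127 others with a mean log2 CPM of 3 or more. Genes with clone or prediction names were left out of these 8127. The nearest were Cdk5rap1, Tbc1d8, Slc37a4, Chchd7 and Anks4b. Nearness was the root mean square difference of centred log2 CPM, which was 0.07 for Cdk5rap1, 0.08 for Tbc1d8, 0.10 for Slc37a4 and 0.11 for Chchd7 and Anks4b. Among the members themselves it ran from 0.13 for Acaca to 0.57 for Thrsp. Slc37a4, the glucose 6-phosphate transporter of the endoplasmic reticulum, averaged 120 CPM in WT and 147 CPM in knockout livers (log2 fold change 0.29 ± 0.169).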

How the data were processed

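The authors deposited whole-number counts per Ensembl gene ID and library, without normalization. Per the submitters' processing notes STAR, Picard and HTSeq were used with the build mm9. Their versions, the annotation and the strand setting were not given in the sources used here. Per the labels' protocols, poly(A) RNA (250 ng of total RNA) was made into directional libraries and read as pairs of 100 cycles. Of 37991 IDs, 32919 (86.6%) matched a symbol in GENCODE M21 or RefSeq. Transcript lengths and gene order are those of GENCODE M21 (GRCm38), promoter windows those of RefSeq on GRCm38.p6, and neither was used to count reads.

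Counts were tested with edgeR 4.0.16 (R 4.3.3): filterByExpr with a minimum count of 10, TMM scaling, quasi-likelihood F-test, two-sided, no covariate, Benjamini-Hochberg adjustment over all 14686 tested genes, called below 0.05. CPM uses the TMM-scaled library sizes, and centred values are log2 CPM with a prior count of 2. The SE is that implied by the test. Libraries of a group differed by far more than sampling noise (chi-square per gene of 18.7 to 94.9), and 1 library per liver is named.

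The members and lists were chosen with earlier results of these data known. All members are named, with, from each list, the called genes or the 2 with the smallest p (1 of these is not reported here), the 5 genes nearest to the members' profile, Zpbp2, and the paralogs Scd2, Scd3, Scd4 and Mid1ip1. Hsd17b8 and the hepatocyte marker Tf matched no ID. Alternatives were DESeq2 1.42.0, limma-voom (limma 3.58.1), other scalings and filters, a block for replicate number, a robust fit, offsets for length and GC content, and each library left out.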

Additional observations from a re-analysis of the deposited data

How the results depend on the processing

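Under 15 alternatives, 9 settings and 6 libraries left out, the number of lipogenic genes called stayed 0, as did that of the other pathway lists, and the lowest adjusted p of any member was 0.519. The number of genes called over the whole table was 2, but 76 with DESeq2 and 12 with no filter, and 2 to 4 with a library left out. The members' median log2 fold change of 0.30 ranged from 0.27 to 0.35 over the settings and from 0.14 (without Zpbp2 KO replicate 3) to 0.44 (without Zpbp2 KO replicate 1) with a library left out. Of the members, 8 kept their sign in every alternative. The exceptions were Scd1 and Mlxipl. With the replicate number as a block the count of members called was again 0 and of all genes 2. Deviations of same-numbered livers had correlations over genes of 0.142, 0.197 and -0.237, where other pairs had -0.323 to 0.232. With 3 livers a group these values cannot decide whether the numbers pair the livers. Every member had 3399 or more counts in each library, and with 3 livers a group the intervals are wide: the 95% interval of Thrsp spans 0.934 to 3.74 of the WT level.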
